A study of Mus musculus with 16 samples.

Results

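The 9 genes described here were listed as markers of monocytes and measured in libraries of sorted mouse neutrophils: F13a1, Ly6c2, Ccr2, Csf1r, Cx3cr1, Fn1, Ms4a6c, Klf4 and Nr4a3. Of these genes, Nr4a3 did not vary with the others across the libraries, as given below. All were chosen by name, and 9 of 9 were found, each under 1 identifier, among the 49585 gene identifiers of the deposited counts. Monocytes are white blood cells that arise in the bone marrow from progenitors they share with neutrophils, pass into the blood and become macrophages or dendritic-like cells in tissues. Classical monocytes carry much Ly6C and CCR2, the receptor that lets them leave the marrow, whereas nonclassical monocytes patrol vessel walls and carry more CX3CR1. Both carry the receptor CSF1R, and KLF4 is a transcription factor needed for their formation.

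The libraries came from the bones of C57BL/6 mice aged 8 to 12 weeks, and the cells were described as neutrophils isolated by flow cytometry. The group P2KO (Vav:cre-PHD2f/f) was labelled as lacking the oxygen sensor PHD2 and was set against its own wild-type group, P2WT. The group P2H2KO (Vav:cre-PHD2/HIF2ff/ff) was labelled as lacking both PHD2 and the hypoxia-inducible factor HIF2α and was set against its own wild-type group, P2H2WT. Each group held 4 libraries. PHD2, encoded by Egln1, is an enzyme that marks the α subunits of hypoxia-inducible factors for degradation when oxygen is present, and HIF2α is encoded by Epas1. Vav:cre is active across blood-forming cells, so it is not restricted to neutrophils and monocytes carry it as well. The wild-type groups are not said to carry Cre, the sorting gates were not given in the sources used here, and the labels do not say that each library came from a separate mouse. The p-values below therefore measure the spread between these libraries, which may be partly technical. The comparisons asked how transcript levels differ with the loss of PHD2, and whether such differences remain when HIF2α is missing too.

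Library totals ran from 23450746 to 28601284 counts. The values below are CPM, counts divided by library sizes that were scaled by TMM, a normalization that assumes most genes do not differ. Egln1, the gene targeted in both lines, was not lower in the labelled deletions: it stood at 43.2 to 58.4 CPM in P2KO and 45.9 to 51.3 in P2WT, and at 49.2 to 58.8 CPM in P2H2KO and 47.9 to 54.6 in P2H2WT. Epas1 stood at 3.42 to 8.39 CPM in P2H2KO and 2.55 to 4.97 in P2H2WT, so it was not lower either, and it reached 24.4 CPM in P2KO replicate 9. These are counts over whole genes. The position of the floxed exons was not given in the sources used here, so the counts could not be used to check the labels, and every direction below rests on the labels alone. Transcripts of several other cell types were present beside those of neutrophils. A list of 14 neutrophil genes took 3.69% to 8.33% of counts, 9 erythroid genes took 2.30% to 4.93%, 10 B cell genes took 0.0831% to 0.205%, and the 9 monocyte markers took 0.246% to 0.702%. In bulk libraries, fewer cells of a type and less RNA per cell cannot be told apart.

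Upstream sequences are shown for F13a1, Ly6c2 and Klf4, genes of an enzyme subunit, a surface marker and a transcription factor whose levels moved together across the libraries, as described below. The set of RefSeq starts used here (GRCm38.p6) had entries for 7 of the 9 genes, with none for Fn1 and Csf1r. The 250 bases before the annotated start are given 5′ to 3′ on the strand of the gene, and capitals mark matches to the motifs searched on both strands.
F13a1: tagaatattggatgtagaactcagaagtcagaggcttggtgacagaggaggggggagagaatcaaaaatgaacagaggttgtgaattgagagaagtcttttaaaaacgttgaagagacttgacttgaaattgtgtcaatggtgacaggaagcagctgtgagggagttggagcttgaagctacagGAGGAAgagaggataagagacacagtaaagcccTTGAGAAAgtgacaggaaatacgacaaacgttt
Ly6c2: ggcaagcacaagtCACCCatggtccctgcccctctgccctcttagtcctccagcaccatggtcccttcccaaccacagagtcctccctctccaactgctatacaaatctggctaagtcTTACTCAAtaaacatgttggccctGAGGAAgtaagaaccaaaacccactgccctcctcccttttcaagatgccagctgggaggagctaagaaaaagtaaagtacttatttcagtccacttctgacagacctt
Klf4: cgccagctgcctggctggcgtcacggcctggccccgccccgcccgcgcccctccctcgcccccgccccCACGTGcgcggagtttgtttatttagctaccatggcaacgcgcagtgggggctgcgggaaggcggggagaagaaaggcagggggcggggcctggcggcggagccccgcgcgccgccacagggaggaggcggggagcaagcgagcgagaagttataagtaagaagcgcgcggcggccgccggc
The F13a1 window (chr13:37050245-37050494, minus strand) held the PU.1 core GAGGAA and the C/EBP pattern TTNNGNAA, motifs named for transcription factors of myeloid cells. The Ly6c2 window (chr15:75111972-75112221, minus strand) held both of these and the KLF core CACCC. The window of Klf4 (chr4:55532476-55532725, minus strand) held the hypoxia-inducible factor core ACGTG on both strands within the palindrome CACGTG, which is counted as 2 overlapping matches, and neither myeloid motif. Genes were then counted as holding a motif if any of their listed starts did, with 2 starts listed for F13a1 and Ly6c2 and 1 for the other 5. The HIF core was present in 2 of 7 markers (Klf4 and Nr4a3) and in 18.5% of the 27025 genes of the table. The PU.1 core was present in 2 of 7 (F13a1 and Ly6c2) and 25.9% of all genes. The C/EBP pattern was present in 4 of 7 (F13a1, Ly6c2, Ccr2 and Ms4a6c) and 40.3%, and the KLF core in 4 of 7 (Ly6c2, Cx3cr1, Nr4a3 and, at its start not printed here, F13a1) and 54.5%. Neither the TATA motif TATAAA, found in 14.3% of all genes, nor the NR4A motif AAAGGTCA, found in 1.55%, was present in any of the 7. The windows differed in base composition: GC content was 42.8% for F13a1 but 74.0% for Klf4, beside a median of 52.4% over all windows. A match describes these letters and is not evidence of binding.

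Compared per length, as CPM per kilobase of annotated exons averaged over the 16 libraries, the 9 genes ran from among the most abundant to near the least abundant of the 14058 genes ranked. Ly6c2, which encodes the Ly6C surface protein of classical monocytes, was highest at 215 and ranked 169. Fn1, which encodes the matrix protein fibronectin, followed at 145 and F13a1, the A subunit of the fibrin cross-linking coagulation factor XIII, at 129. Ms4a6c, a membrane protein of the MS4A family, stood at 94.6 CPM per kilobase. The receptor genes Ccr2 and Csf1r stood at 67.9 and 60.3, and Klf4 and Cx3cr1, the receptor for fractalkine, at 26.0 and 20.2. Nr4a3, an orphan nuclear receptor gene that is switched on quickly in stimulated cells, was near the bottom at 0.103 and ranked 13618. Neighbours in this order that did not differ beyond their spread between libraries were Fn1 and F13a1, F13a1 and Ms4a6c, Ccr2 and Csf1r, and Klf4 and Cx3cr1. The same order held in 14 of 16 libraries for Fn1 over F13a1, in 14 for Ccr2 over Csf1r, in 15 for Klf4 over Cx3cr1 and in 16 for F13a1 over Ms4a6c. With the exons of protein-coding transcripts only, F13a1 stood above Fn1 (217 against 199 CPM per kilobase) and Csf1r above Ccr2 (69.9 against 67.9), so the order within these pairs depended on the gene model.

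Reads from related or overlapping genes could enter some of these counts. Ly6c2 was 97.6% identical to Ly6c1 over 822 bases of transcript, and Ly6c1 itself had 3 to 19 counts per library, so the division of reads between them is uncertain. Ms4a6c was 86.5% identical to Ms4a6b over 1234 bases, and Ms4a6b had 847 to 2237 counts. The exons of Ms4a6c overlapped those of BE692007 on the other strand (9 to 39 counts), and those of Csf1r overlapped Hmgxb3 (649 to 983 counts) over 873 bases. The use of strand was not given in the sources used here, so reads of such partners cannot be told apart. In GENCODE M21 on GRCm38, Ly6c2 lies at chr15:75108158-75111970, Fn1 at chr1:71585520-71653200, F13a1 at chr13:36867178-37050244 and Klf4 at chr4:55527143-55532466, all on the minus strand. On the plus strand, Ccr2 lies at chr9:124101950-124113557, Ms4a6c at chr19:11469366-11482192 and Nr4a3 at chr4:48045153-48086447. Cx3cr1 lies at chr9:119901616-120069879 on the minus strand.

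The 8 markers other than Nr4a3 varied together from library to library. After each group's mean had been subtracted from log2 CPM, the 28 pairs among them correlated with Pearson's r of 0.53 to 0.97 (median 0.88) over the 16 libraries and Spearman's rho of 0.48 to 0.95. A further check left out 2 libraries per pair, those farthest from the median of the gene named first in the opening list. Then r ran from 0.26 to 0.96, with a median of 0.82. The highest value, 0.97, was between F13a1 and Ms4a6c. The 8 pairs with Nr4a3 had r between -0.13 and 0.19. These values describe the libraries, which share depth, sorting and cell content across all genes, and carry no test.

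**Figure D1:**
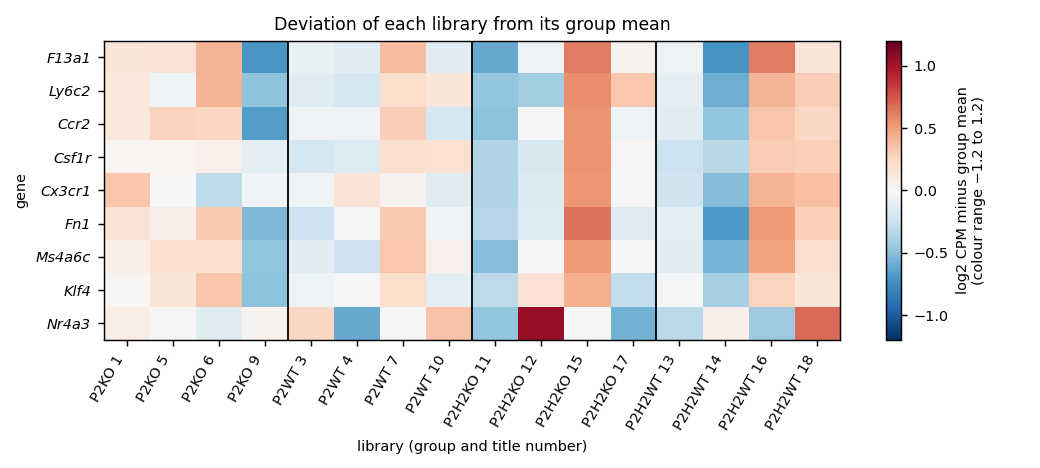
Each cell gives the log2 CPM of a gene (rows) in a library (columns, by group and replicate) minus the mean of its group, from blue (lower) to red (higher) over a range of -1.2 to 1.2. P2KO replicate 9 is lower than its group mean in most rows, and P2H2KO replicate 15 is higher in all rows but Nr4a3.

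Single libraries stood apart across the set. P2KO replicate 9 was the lowest of all 16 libraries for 7 of the 9 genes and among the lowest 3 for 8. P2H2KO replicate 15 was the highest of 16 for 7 genes and among the highest 3 for 8. P2H2WT replicate 16 was among the highest 3 for 8 genes, whereas P2H2WT replicate 14 was among the lowest 3 for 7. P2KO replicate 9 was the only library of P2KO whose title carries the suffix f, the others carrying m. The suffixes divided 2 and 2 in P2WT and in P2H2KO, and P2H2WT had 3 with m and 1 with f.

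Other lists moved with these deviations to different degrees. Over the 16 libraries and the 8 markers, the median r with the summed level of 18 other classical monocyte genes was 0.94, and with 14 regulators of monocyte and granulocyte fate 0.80. It was 0.41 with the neutrophil list (0.12 to 0.71 over the 8 markers) and -0.62 with the macrophage list (-0.83 for Klf4 to -0.16 for Cx3cr1). With the erythroid list it was -0.72 (-0.81 to -0.38), and with the B cell list -0.77 (-0.87 to -0.66). The part of these cell types in the levels of the markers was not tested. In P2KO replicate 9 the 10 megakaryocyte and platelet genes summed to 272 CPM, the highest of all libraries, the 10 B cell genes to 1931 CPM and the neutrophil genes to 34757 CPM, the lowest of all libraries.

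**Figure D2:**
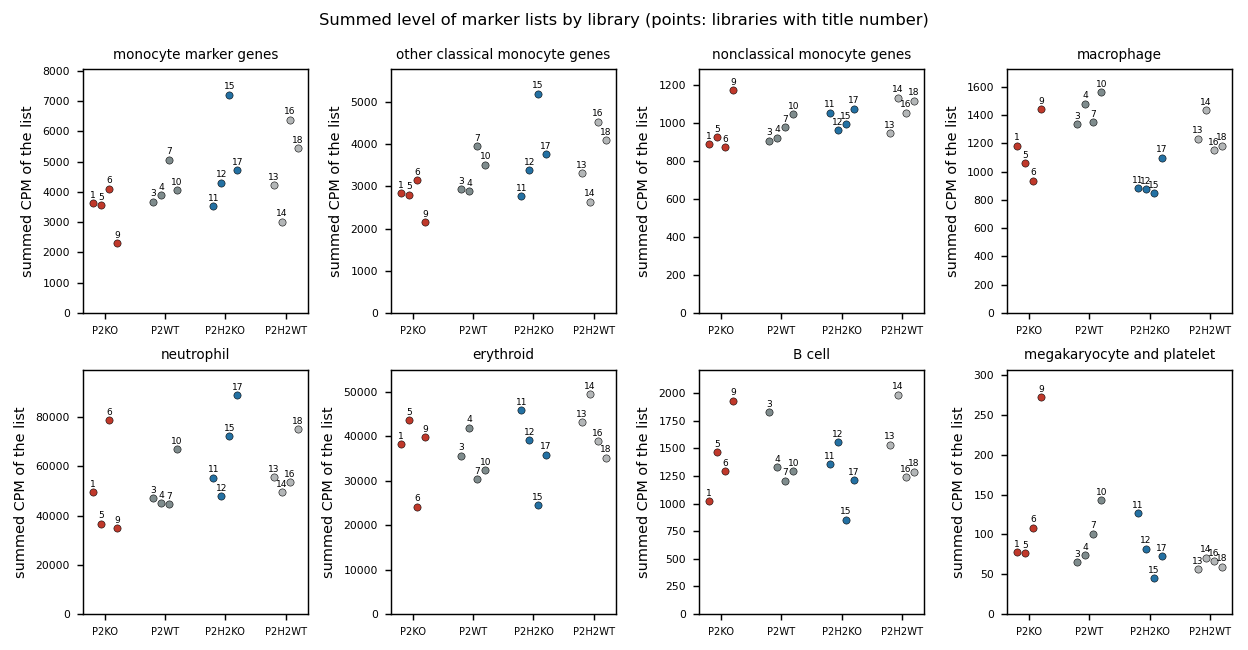
The summed CPM of each marker list is plotted for every library (points with their replicate number) in the 4 groups. The 9 monocyte markers sum to 2315 to 4104 CPM in P2KO and 3674 to 5065 in P2WT, and to 3520 to 7211 in P2H2KO and 3013 to 6388 in P2H2WT.

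The genes whose deviations were most like those of each marker were named among 12080 genes with a mean of at least 1 CPM (12081 for Nr4a3, which is itself below that level), by r over the 16 libraries and with no test. For F13a1 they were Met (0.99), Pycard (0.99) and Dbi (0.99), and for Ly6c2 Mapkapk2 (0.99), Mapkapk3 (0.99) and Anxa5 (0.99). For Ms4a6c they were Mcub (0.99), Naaa (0.98) and Ifi30 (0.98). Ccr2 was most like Pycard (0.97), Bex6 (0.97) and Naaa (0.96). Csf1r was most like Cd68 (0.98), Ctss (0.97) and Tnfrsf1b (0.97), and Fn1 like Otulinl (0.97), Apba1 (0.97) and Frrs1 (0.97). Of these, Cd68 belongs to the macrophage list and Ctss to the other classical monocyte genes. The nearest to Klf4 were Nlrp1a (0.96), Dock10 (0.95) and Ctnna1 (0.95). Likeness was weaker for Cx3cr1, with Fam78b (0.91), Ednrb (0.91) and Fdps (0.90), and for Nr4a3, with Rad9a (0.83), Rabep2 (0.82) and Bahcc1 (0.81).

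In the line labelled for PHD2 loss alone, the fitted mean of each of the 9 markers was lower in P2KO than in P2WT, and in no case did the difference pass the test. The values below list P2KO replicates 1, 5, 6 and 9 in that order and P2WT replicates 3, 4, 7 and 10 in that order. Standard errors (SE) of the log2 fold changes come from the same fit.

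Among the receptors, Ccr2 stood at 391.9, 435, 430 and 225 CPM in P2KO and at 374, 373, 473 and 333 CPM in P2WT. The groups overlapped, with P2KO replicate 9 alone below every P2WT library, and the log2 fold change was -0.05 (SE 0.20). Csf1r stood at 293, 293, 300.5 and 265 CPM in P2KO and at 299, 309, 398 and 394 CPM in P2WT. Its P2KO libraries lay close together, at 288 ± 15.4 CPM (SD, n = 4), against 350.3 ± 53.3 (SD, n = 4) in P2WT, and P2KO replicate 6 exceeded the lowest P2WT library. For Csf1r the log2 fold change was -0.27 (SE 0.11). Cx3cr1 stood at 81.1, 64.5, 52.3 and 62.9 CPM in P2KO and at 80.1, 93.1, 85.9 and 75.1 CPM in P2WT. Here P2KO replicate 1 lay inside the range of the controls and the other 3 lay below it, and replicate 9 was not the lowest. For Cx3cr1 it was -0.35 (SE 0.12).

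Ly6c2 stood at 503, 445, 612 and 329 CPM in P2KO and at 505, 483, 650.4 and 621 CPM in P2WT. The ranges overlapped widely, and the log2 fold change was -0.25 (SE 0.19). Ms4a6c stood at 158, 171, 173 and 108 CPM in P2KO and at 173, 160.0, 237 and 196 CPM in P2WT. Replicates 5 and 6 of P2KO lay within the control range, and the log2 fold change was -0.32 (SE 0.17).

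F13a1 stood at 752, 757, 904 and 419 CPM in P2KO and at 756, 732, 1041 and 731 CPM in P2WT. P2KO replicates 1, 5 and 6 lay inside the range of P2WT and replicate 9 far below it, with a log2 fold change of -0.19 (SE 0.22). Fn1 stood at 1387, 1318, 1548 and 858 CPM in P2KO and at 1412, 1660.1, 2090.0 and 1632 CPM in P2WT. Only P2KO replicate 6 exceeded the lowest control, and the log2 fold change was -0.40 (SE 0.19).

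Klf4 stood at 67.1, 73.2, 83.3 and 47.3 CPM in P2KO and at 73.7, 75.6, 89.5 and 70.9 CPM in P2WT. P2KO replicates 1 and 9 lay below the control range and the other 2 inside it. The log2 fold change was -0.18 (SE 0.16). Nr4a3 stood at 0.478, 0.449, 0.395 and 0.461 CPM in P2KO and at 0.939, 0.485, 0.790 and 1.01 CPM in P2WT. It was the single marker whose groups did not overlap, but the nearest libraries had 13 and 12 counts, so the gap there is within counting error. Its log2 fold change was -0.84 (SE 0.26). Groups separated in this direction for 1.39% of 14079 genes.

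**Figure D3:**
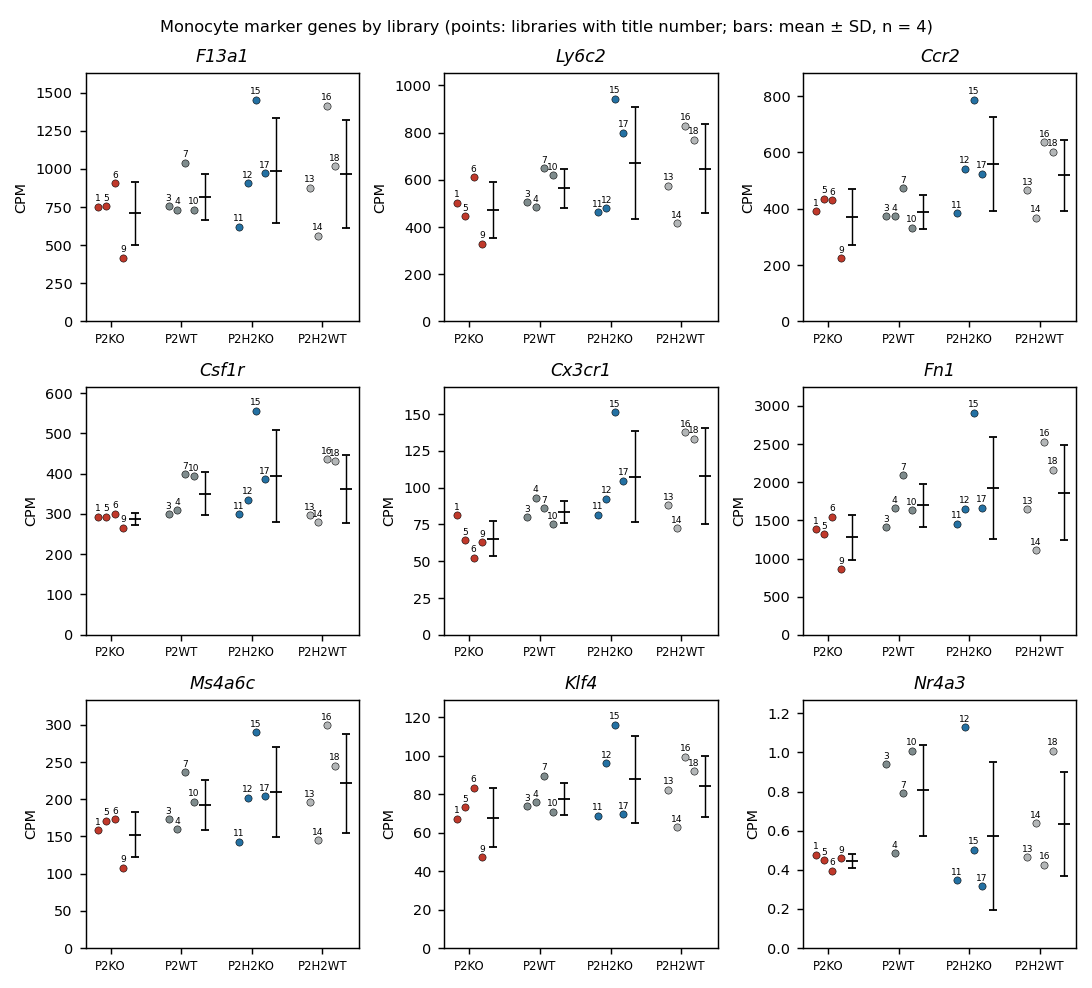
CPM of each marker in every library (points with their replicate number) by group, with the mean and SD of 4 libraries as bars. Most panels overlap between groups, with P2KO replicate 9 at the bottom of its group in 7 panels and P2H2KO replicate 15 at the top of its own in 8.

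By edgeR's quasi-likelihood test with Benjamini-Hochberg adjustment over 13734 genes, 0 of the 9 markers were called between P2KO and P2WT (adjusted p = 0.999989 for each), where 0.0437% of all genes were called. DESeq2 called 0 of the 9 as well, and 0.167% of all genes. Without adjustment, Nr4a3, Cx3cr1 and Csf1r had p under 0.05 by edgeR, which makes 3 of the 9, all lower in P2KO. Over all genes this share was 2.0% in that direction and 3.49% in both directions. The median log2 fold change was -0.27 over the markers and 0.02 over all genes tested, and 42.2% of all genes were lower in P2KO. As the markers varied together, their 9 directions are not 9 separate observations.

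The sizes rested in part on P2KO replicate 9. Without it, 8 of 9 markers remained lower, the median log2 fold change was -0.19, Ccr2 stood at 0.12, F13a1 at -0.01 and Klf4 at -0.05. Fn1 stood at -0.25 without it, Ly6c2 at -0.11 and Ms4a6c at -0.19, whereas Csf1r (-0.24), Cx3cr1 (-0.33) and Nr4a3 (-0.86) moved little. Without P2WT replicate 7, Ccr2 stood at 0.05 and F13a1 at -0.06. The number of markers with unadjusted p under 0.05 ran from 1, without P2KO replicate 5 or 9 or P2WT replicate 7, to 5, without P2KO replicate 6. The share of all genes at that p moved as well, from 2.92%, 3.79% and 2.13% in the first 3 of these fits to 12.2% in the last.

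**Figure D4:**
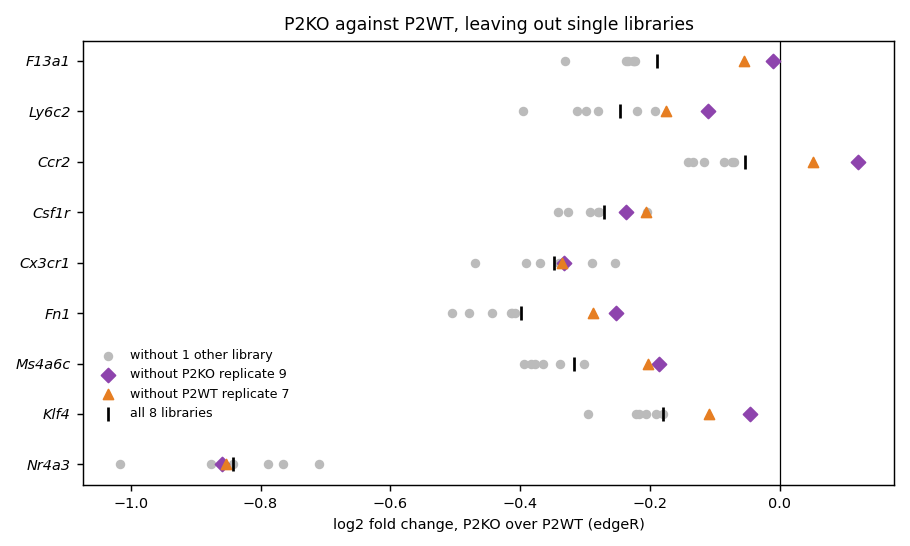
The log2 fold change of each marker between P2KO and P2WT is shown with all 8 libraries (vertical ticks) and with 1 library left out (symbols, those without P2KO replicate 9 and P2WT replicate 7 set apart). Ccr2 passes 0 to reach 0.12 without P2KO replicate 9, and F13a1 reaches -0.01.

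Within the libraries of suffix m, 3 of P2KO against 2 of P2WT, 5 markers were lower and 4 higher, and the median log2 ratio of means was -0.0027. There Nr4a3 stood at -0.69, Cx3cr1 at -0.39, Fn1 at -0.12 and Csf1r at -0.04, while Ccr2 stood at 0.17 and F13a1 at 0.11. Within suffix f, P2KO replicate 9 was lower than the mean of 2 P2WT libraries for 9 of 9 markers, with a median of -0.95. With 1 library on a side this has no replicate check. With the suffix as a covariate over all 8 libraries, 9 of 9 markers were lower and the count with unadjusted p under 0.05 was 2. Over the alternative settings that kept all libraries, this one included, 442 to 813 of all genes had unadjusted p under 0.05, against 480 in the main fit.

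Other classical monocyte genes were mostly lower in the mean as well. Of 18 other classical monocyte genes, 0 were called in P2KO against P2WT by edgeR or DESeq2, 16 were lower and 2 higher, and the median log2 fold change was -0.28. In that list, 7 genes had unadjusted p under 0.05, each lower in P2KO, against 2.0% of all genes in that direction. The list varied with the markers across the libraries (median r 0.94), so it is not a separate observation. The lowest was Cd14, a co-receptor for bacterial lipopolysaccharide, at -0.64 (SE 0.18), and the highest was Vcan, a matrix proteoglycan, at 0.32 (SE 0.46). Without P2KO replicate 9, 15 were lower and 3 higher, with a median of -0.20. Again 7 were lower at unadjusted p under 0.05, against 2.58% of all genes. The 13 tested nonclassical monocyte genes divided 7 lower and 6 higher, with a median of -0.01, from Itgax at -0.14 to the fatty acid carrier Fabp4 at 0.46. Without P2KO replicate 9, 10 of these were lower and 3 higher, with a median of -0.15, and with the suffix as a covariate 3 were lower and 10 higher, with a median of 0.07. Their summed level was highest in P2KO replicate 9, the library lowest in most of the 9 markers.

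Ligands and partners of the markers lay on both sides of 0 in this comparison. Of 13 such genes 9 were tested, 5 higher and 4 lower, with a median of 0.04, and 0 were called by edgeR or DESeq2, 0 also without adjustment. They ran from Itga4, an integrin subunit that binds fibronectin, at -0.08 (SE 0.09) to Il34, a ligand of CSF1R, at 0.18 (SE 0.35). Of 14 fate regulators, 10 were lower and 4 higher, with a median of -0.01. Cebpa, a transcription factor of granulocyte and monocyte progenitors, was the lowest at -0.38 (SE 0.09), and Cebpe, a factor of later granulocyte maturation, the highest at 0.14 (SE 0.18). Immediate-early genes, which respond fast to stimulation as Nr4a3 does, divided 8 lower and 5 higher, with a median of -0.06, from Fos at -0.47 (SE 0.33) to Egr3 at 0.38 (SE 0.30). Neither list had a call by edgeR or DESeq2. Unadjusted p was under 0.05 for 2 fate regulators and 0 immediate-early genes, against 3.49% of all genes. When P2KO replicate 9 was left out, 7 fate regulators were lower and 7 higher, and 4 immediate-early genes were lower and 9 higher. Without P2KO replicate 6, 12 fate regulators were lower, with a median of -0.20. In that fit 5 had unadjusted p under 0.05, against 12.2% of all genes. Macrophage genes were lower in 13 of 14 cases, with a median of -0.29, from Siglec1 at -0.59 (SE 0.12) to Cd163 at 0.05 (SE 0.15). In the macrophage list 0 were called by edgeR, whereas DESeq2 called Siglec1, an adhesion receptor of marrow macrophages. By edgeR 4 had unadjusted p under 0.05, against 3.49% of all genes. Leaving out P2KO replicate 9 gave 14 of 14 lower, with a median of -0.41. In that fit 11 had unadjusted p under 0.05, against 3.79% of all genes. Without P2KO replicate 5 the count was 2, against 2.92% of all genes. The summed level of the macrophage genes was 934.7 to 1442 CPM in P2KO and 1332 to 1559 in P2WT. The part of these cells in the lower markers was not tested.

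In the line labelled for loss of both PHD2 and HIF2α, the markers lay on either side of 0 and none passed the test. Values follow for P2H2KO replicates 11, 12, 15 and 17 and for P2H2WT replicates 13, 14, 16 and 18, in those orders.

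Ccr2 stood at 385, 543, 788 and 525 CPM in P2H2KO and at 465, 368, 637 and 602 CPM in P2H2WT. Both groups held low and high libraries, and the log2 fold change was 0.11 (SE 0.23). Csf1r stood at 299, 335, 556 and 387 CPM in P2H2KO and at 297, 280.0, 436 and 431 CPM in P2H2WT. P2H2KO replicate 15 was the highest and the other 3 lay within the control range, with a log2 fold change of 0.13 (SE 0.22). Cx3cr1 stood at 81.6, 92.6, 151 and 105 CPM in P2H2KO and at 88.0, 72.5, 138 and 133 CPM in P2H2WT. The means were 108 ± 30.7 and 108 ± 32.7 CPM (SD, n = 4 each), with a log2 fold change of -0.0041 (SE 0.24).

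Ly6c2 stood at 463, 479, 943 and 799 CPM in P2H2KO and at 576, 417, 830 and 769 CPM in P2H2WT. In each group 2 libraries stood well above the other 2. Its log2 fold change was 0.05 (SE 0.28). Ms4a6c stood at 143, 202, 290.4 and 204 CPM in P2H2KO and at 196, 145, 299 and 245 CPM in P2H2WT. The groups spanned nearly the same range, and the log2 fold change was -0.08 (SE 0.25).

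F13a1 stood at 622, 907, 1454 and 971 CPM in P2H2KO and at 876, 561, 1413 and 1016 CPM in P2H2WT. The SD was 35.0% of the mean in P2H2KO and 36.5% in P2H2WT, and the ranges nearly coincided. The log2 fold change was 0.03 (SE 0.31). Fn1 stood at 1457, 1655, 2911 and 1664 CPM in P2H2KO and at 1644, 1105, 2534 and 2163 CPM in P2H2WT. P2H2KO replicate 15 stood far above the other 3 of its group, and the log2 fold change was 0.05 (SE 0.29).

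Klf4 stood at 68.8, 96.2, 116 and 69.5 CPM in P2H2KO and at 82.2, 62.9, 99.5 and 91.9 CPM in P2H2WT. The 2 highest P2H2KO libraries were replicates 12 and 15, and the ranges overlapped. Its log2 fold change was 0.06 (SE 0.19). Nr4a3 stood at 0.346, 1.13, 0.503 and 0.316 CPM in P2H2KO and at 0.465, 0.638, 0.426 and 1.01 CPM in P2H2WT. These are 7 to 28 counts per library, and for Nr4a3 the high library of P2H2KO was replicate 12, not replicate 15. The log2 fold change was -0.12 (SE 0.45).

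By edgeR, 0 of 9 markers were called between P2H2KO and P2H2WT (adjusted p = 0.999908 for each), where 0.0744% of 13435 genes were called. DESeq2 called 0 of the 9 and 0.313% of all genes. None had unadjusted p under 0.05 by edgeR, against 2.63% of all genes. The median log2 fold change was 0.05 over the markers and 0.0011 over all genes, with 3 markers lower and 6 higher, and 49.5% of all genes lower. No marker separated the groups, as 0.824% of all genes did with P2H2KO lower and 0.952% with P2H2KO higher. The standard errors ran from 0.19 to 0.45, against 0.11 to 0.26 in the PHD2 line.

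The split of directions in this line depended on single libraries. Without P2H2KO replicate 15 all 9 markers were lower in P2H2KO, and without P2H2KO replicate 11 none was. Within suffix m, 2 of P2H2KO against 3 of P2H2WT, 7 of 9 were lower, with a median log2 ratio of -0.083. Within suffix f, 2 of P2H2KO against P2H2WT replicate 16 alone, 6 of 9 were lower, with a median of -0.10. That 1 control was among the highest 3 of all 16 libraries for 8 markers, so the values within suffix f have no replicate check. With the suffix as a covariate 7 of 9 were lower. F13a1, Fn1, Cx3cr1 and Ms4a6c were lower within either suffix, within f against that 1 control only.

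**Figure D5:**
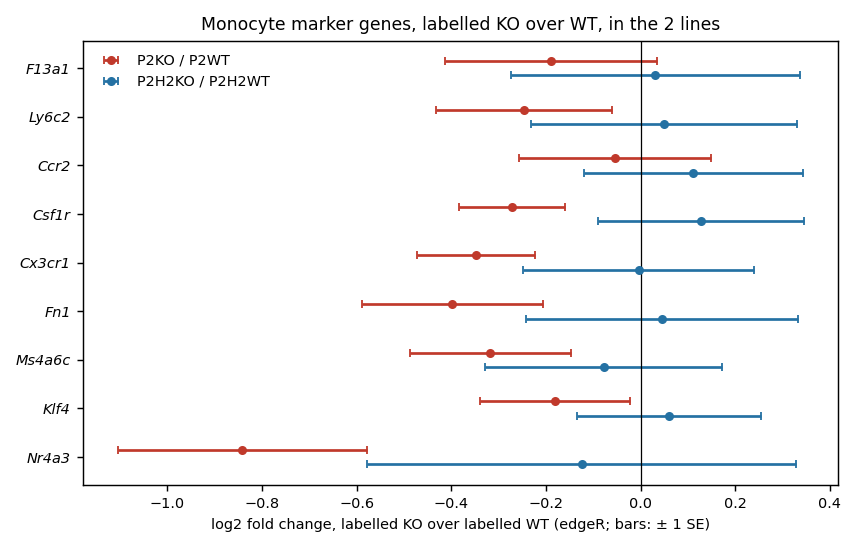
The log2 fold change of each marker (points, with 1 SE as bars) between the labelled KO and WT groups in the 2 lines. In the PHD2 line the points lie between -0.84 and -0.05, and in the line labelled for both losses between -0.12 and 0.13, with longer bars.

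The other lists in P2H2KO against P2H2WT were likewise without calls by edgeR among monocyte genes. The 18 other classical monocyte genes divided 9 higher and 9 lower, with a median of 0.0070, and the highest was the coagulation factor gene F10 at 0.68 (SE 0.26). Without P2H2KO replicate 15, 15 of them were lower. DESeq2 called 0 of the 18 too, and 2 had unadjusted p under 0.05 by edgeR. Of 13 nonclassical genes 10 were lower, with a median of -0.15, from Tcf7l2 at -0.42 (SE 0.18) to Itgax at 0.20 (SE 0.13). Of the ligands and partners 5 were lower and 4 higher, from Il34 at -0.77 (SE 0.32) to Itga5, a fibronectin receptor subunit, at 0.16 (SE 0.14). All 14 fate regulators were higher in the mean, from Irf8 at 0.02 (SE 0.20) to Nr4a2 at 0.29 (SE 0.21), with a median of 0.11 and none at unadjusted p under 0.05. Without P2H2KO replicate 15, 8 of these 14 were higher. Immediate-early genes divided 6 higher and 7 lower, from Fosb at -0.38 (SE 0.44) to Atf3 at 0.36 (SE 0.21).

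Macrophage genes were lower in the mean throughout in this line. Of the 14, 14 stood lower in P2H2KO, with a median log2 fold change of -0.45. Unadjusted p was under 0.05 for 12 of them, against 1.01% of all genes in that direction. The genes were listed for 1 cell type, so their directions may not be separate observations. By edgeR 0 were called, and DESeq2 called Cd5l, a secreted macrophage protein, which was the lowest at -0.92 (SE 0.19). The highest was Cd68 at -0.12 (SE 0.14). The summed level of the macrophage genes was 848 to 1098 CPM in P2H2KO and 1150.1 to 1433 in P2H2WT, ranges that did not overlap. Taken singly, 0.824% of all genes separated these groups with P2H2KO lower. The difference between the macrophage list and the markers was not tested. The neutrophil genes were higher in 14 of 14 cases, with a median of 0.19, and the erythroid genes lower in 9 of 9, with a median of -0.19. None of either list was called by edgeR or DESeq2, and 1 neutrophil gene had unadjusted p under 0.05. Without P2H2KO replicate 15 the erythroid genes divided 4 higher and 5 lower, with a median of -0.04. Without P2H2KO replicate 17 the neutrophil median was 0.03, with 5 of 14 lower.

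Whether the effect differed between the lines was tested directly over all 16 libraries, as the fold change in the PHD2 line minus that in the line labelled for both losses. The 9 estimates were all below 0, from -0.18 for Ccr2 (SE 0.33) to -0.72 for Nr4a3 (SE 0.55), and none passed the test. Csf1r, with the smallest p of the 9 in edgeR's quasi-likelihood test, stood at -0.41 (SE 0.26), Fn1 at -0.46 (SE 0.37) and Cx3cr1 at -0.35 (SE 0.30). By edgeR 0 of 9 were called (adjusted p = 0.999483 for each), as were 0.0% of 14080 genes, and DESeq2 called 0 of 9 and 0.0% of all genes. Without adjustment 0 of 9 had p under 0.05, against 1.51% of all genes. The median was -0.31 over the markers and 0.0012 over all genes, of which 49.6% were below 0. Of 14 neutrophil genes, 14 were below 0 as well (median -0.22). So were 7 of 7 granulocyte-monocyte progenitor genes (-0.34), a list that shares Elane and Mpo with the neutrophil list, and 16 of 18 other classical monocyte genes (-0.33). Above 0 were 10 of 10 B cell genes (0.39), 9 of 9 erythroid genes (0.25) and 12 of 14 macrophage genes (0.15). With any 1 library left out, 7 to 9 of the marker estimates were below 0. Their median then ran from -0.48 without P2H2WT replicate 16 to -0.10 without P2H2KO replicate 15. P2KO replicate 9 and P2H2KO replicate 15 were also left out together, a choice made after their values were seen. They were the lowest and the highest of all 16 libraries for 7 markers each, so this choice was bound to raise the estimates. Then 4 of 9 marker estimates were below 0 and their median was 0.05. With 0 of 9 called in the test, a difference between the lines in the response of the markers was not detectable with these libraries.

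Mean levels of the markers were mostly lower in the PHD2 line than in the other. Line and deposited table cannot be told apart in either comparison below, nor, between the labelled deletions, can the HIF2 label be told apart from them. Between the wild-type groups, 8 of 9 markers were lower in P2WT than in P2H2WT, with a median log2 fold change of -0.20, from -0.42 for Ccr2 (SE 0.24) to 0.35 for Nr4a3 (SE 0.37). Of 14 neutrophil genes 12 were lower in P2WT too (median -0.17), and of 18 other classical monocyte genes 14 were (-0.13). Of 14 macrophage genes, 12 were higher (0.24). By edgeR 0 of 9 were called, where 0.227% of all genes were, and DESeq2 called 0 of 9 and 2.07% of all genes. None had unadjusted p under 0.05, against 3.1% of all genes lower in P2WT and 6.94% higher. No marker separated the groups, as 2.59% of all genes did with P2WT lower and 5.18% with P2WT higher, and 51.7% of all genes were lower in P2WT. Leaving out P2H2WT replicate 14 moved the median of the markers to -0.36, and leaving out P2H2WT replicate 16 moved it to -0.03, with 6 of 9 lower. The 10 stroma and endothelium genes summed to 509 to 1311 CPM in P2WT and 216 to 338 CPM in P2H2WT. All 10 were higher in P2WT (median log2 fold change 1.64). Of them 9 had unadjusted p under 0.05, 0 were called by edgeR and 7 by DESeq2.

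Between the labelled deletions, 9 of 9 markers were lower in P2KO than in P2H2KO, with a median log2 fold change of -0.48 against 0.0062 over all genes, of which 48.8% were lower in P2KO. The 14 neutrophil genes were all lower in P2KO too (median -0.41), as were 17 of 18 other classical monocyte genes (-0.47). Of 14 macrophage genes, 12 were higher (0.44). The B cell list and the megakaryocyte and platelet list each had 10 of 10 genes higher (0.37 and 0.79). Without P2KO replicate 9 these 2 medians were 0.02 and 0.12. Among the markers, Cx3cr1 stood furthest from 0 at -0.72 (SE 0.21), followed by Ccr2 at -0.60 (SE 0.24) and Fn1 at -0.59 (SE 0.26). The groups did not overlap for Cx3cr1, where 81.1 CPM in P2KO replicate 1 was just below 81.6 CPM in P2H2KO replicate 11, and overlapped for the other 8. Groups separated in this direction for 2.56% of all genes. By edgeR 0 of 9 were called, with adjusted p from 0.142 for Cx3cr1 to 0.638 for Nr4a3, where 0.923% of all genes were called. DESeq2 called 1 of 9, Cx3cr1, with a log2 fold change of -0.73 and adjusted p = 0.0390, where it called 3.0% of all genes. Unadjusted, 4 of 9 (Cx3cr1, Ccr2, Csf1r and Fn1) had p under 0.05 in this direction by edgeR, against 6.34% of all genes and 15.8% in both directions. Without P2KO replicate 9 the count was 1, where 4.84% of all genes were lower at that p, and without P2H2KO replicate 15 it was also 1, against 3.3%. Without P2H2KO replicate 11 it was 8, against 9.59% of all genes. The median of the markers was -0.30 without P2H2KO replicate 15. As between the wild-type groups, the 10 stroma and endothelium genes stood higher in the PHD2 line. They summed to 560 to 1129 CPM in P2KO and 207 to 296 CPM in P2H2KO, and 4 of them (Cdh5, Col1a1, Col1a2 and Emcn) were called by edgeR and 7 by DESeq2, those 4 being higher in P2KO. Leaving out 1 library of these groups gave 1 to 5 calls by edgeR, Col1a2 among them each time. The part of these genes in the difference of the markers between the lines was not tested.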

How the data were processed

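RNA was sequenced from 16 libraries in 4 groups of 4; library titles gave the replicate number and descriptions the genotype. The authors deposited raw counts per gene in 2 tables, 1 per line, whole numbers with no normalization applied, per the file headers. Per the submitters' processing notes, HTSeq and mm10 were used; the aligner, annotation release and use of strand are not given in the sources used here. Reads shared by near-identical or overlapping genes can therefore have been assigned or dropped in an unknown way. A GENCODE M21 table gave symbols for 49326 of 49585 identifiers, and the 259 unmatched held 0.00714% of counts. Replicates of a group (24 pairs) correlated across genes at r of 0.977 to 0.993, and their counts differed beyond sampling noise (chi-square over its degrees of freedom at least 11.5).

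With edgeR 4.0.16, low genes were removed by filterByExpr, libraries scaled with TMM and genes tested with glmQLFit (robust) and glmQLFTest in R 4.3.3. The tests were two-sided, with Benjamini-Hochberg adjustment over all genes tested and a threshold of 0.05. P2KO with P2WT and P2H2KO with P2H2WT were each fitted on 8 libraries, and the difference of the effects and the comparisons across lines on all 16. CPM came from the 16-library fit. Correlations used log2 CPM with a prior count of 2, after subtracting group means. The procedure was also run on simulated counts with known changes, drawn for each gene independently, whereas the markers varied together. The outcome of that run is not reported here. Alternatives were RLE and upper-quartile factors, keeping all genes, a minimum of 10 counts per library, DESeq2 1.42.0, the m or f suffix as a covariate, and leaving out each library; leaving out 2 libraries together was added after their values were seen.

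The 9 genes and the other lists were chosen with earlier results of these data known, and the lists came from general knowledge of the genes. Some lists share genes, such as Elane and Mpo in the neutrophil and progenitor lists and Csf3r in the neutrophil and fate regulator lists. All 9 monocyte markers are described. Genes named beside them are the 3 most like each by r and, for each list described, those with adjusted p under 0.05 or otherwise the highest and lowest; some results that this rule or the search for similar transcripts gave are not reported here. Lists of other cell types are summarised among the closing observations.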

Additional observations from a re-analysis of the deposited data

Results flagged for a closer look

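Over the 36 sets of 4 libraries formed by 9 markers and 4 groups, 2 held a library whose gap to its nearest neighbour exceeded Dixon's critical value for sets of this size at the 95% level; chance flags about 1 in 20 such sets, and the markers are not independent of each other. F13a1 was far higher in P2WT replicate 7, at 1041 CPM, than in the other 3 libraries of its group, with a gap of 0.92 of the range. Fn1 was far higher in P2H2KO replicate 15, at 2911 CPM, with a gap of 0.86 of the range, and that library was the highest of all 16 for 7 of the 9 markers.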

How the results depend on the processing

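In all 5 comparisons and under every alternative by edgeR, 0 of the 9 markers were called; DESeq2 called 1, Cx3cr1, in P2KO against P2H2KO. Over the alternatives to each marker's log2 fold change, 834 values kept their direction and their side of the threshold, 52 changed sign, none of them past the threshold, and 1 passed it. Nr4a3, with as few as 7 counts in a library, had no value under the minimum of 10 counts except in P2KO against P2WT. No paired analysis was possible because the groups share no replicate number. RLE and upper-quartile factors changed no direction. Where a value moved, the cause was not tested.

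With DESeq2, 23 genes were called in P2KO against P2WT, 42 in P2H2KO against P2H2WT, 291 in P2WT against P2H2WT and 422 in P2KO against P2H2KO, against 6, 10, 32 and 130 with edgeR. In P2WT against P2H2WT, 9 genes were called with no filter, 0 with at least 10 counts and 124 with the suffix as a covariate; in P2KO against P2H2KO, 56 with at least 10 counts and 210 with the suffix. With the suffix, 7 markers were lower in P2H2KO than in P2H2WT, with Ly6c2 at -0.18, Csf1r at -0.012, Fn1 at -0.10, F13a1 at -0.14, Ccr2 at -0.012 and Nr4a3 at 0.056, and 2 markers had unadjusted p under 0.05 in P2KO against P2H2KO. Over the alternative settings that kept all libraries, 1835 to 2642 of all genes had unadjusted p under 0.05 in P2KO against P2H2KO, against 2230 in the main fit.

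Leaving out libraries, the single ones and the 2 dropped together included, gave the following ranges. Genes called ran from 6 to 9 in P2H2KO against P2H2WT, 0 to 182 in P2WT against P2H2WT and 12 to 179 in P2KO against P2H2KO. In P2H2KO against P2H2WT, 0 to 9 markers were lower, and log2 fold changes ran from -0.10 to 0.16 for Klf4, -0.16 to 0.19 for Ly6c2, -0.082 to 0.24 for Csf1r, -0.22 to 0.23 for Fn1, -0.68 to 0.18 for Nr4a3, -0.21 to 0.27 for F13a1, -0.095 to 0.25 for Ccr2, -0.21 to 0.14 for Cx3cr1 and -0.27 to 0.10 for Ms4a6c. In P2KO against P2WT, Ccr2 ran from -0.14 to 0.12, and 1 to 5 markers had unadjusted p under 0.05, as did 2.13% to 12.2% of all genes. In the difference of the effects, 4 to 9 markers were below 0 and the median ran from -0.48 to 0.047, with Klf4 from -0.37 to 0.056, Ly6c2 from -0.46 to 0.047, F13a1 from -0.48 to 0.20, Ccr2 from -0.32 to 0.22 and Ms4a6c from -0.43 to 0.086. In P2WT against P2H2WT, Csf1r ran from -0.15 to 0.059 and Fn1 from -0.32 to 0.052, and 0 to 2 markers had unadjusted p under 0.05. Of all genes, 7.54% to 11.4% had that p in this comparison with 1 library left out. In P2KO against P2H2KO, Nr4a3 ran from -0.58 to 0.15, the median from -0.65 to -0.18, and 1 to 8 markers had unadjusted p under 0.05. Of all genes, 10.1% to 27.9% had that p in this comparison with 1 library left out.

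Depth limits Nr4a3 only, at 7 to 28 counts per library; the other 8 markers had over 1000 counts in every library, and for them the spread between libraries sets the precision.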

Other observations

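Lists of other cell types were measured beside the 9 monocyte markers, as medians of log2 fold changes in P2KO against P2WT and then in P2H2KO against P2H2WT. The 10 tested megakaryocyte and platelet genes stood at 0.47 and 0.46, the 10 B cell genes at 0.03 and -0.34, and the 9 erythroid genes at 0.07 and -0.19. The 14 neutrophil genes stood at -0.0095 and 0.19, the 7 genes of granulocyte-monocyte progenitors at -0.09 and 0.19, and the 12 dendritic cell genes at -0.14 and 0.09. The 10 T and NK cell genes stood at -0.27 and -0.09, the 10 genes of eosinophils, basophils and mast cells at -0.10 and -0.10, and the genes of stroma and endothelium at 0.25 and 0.19 (10 and 9 tested). By edgeR 0 genes of these lists were called in these 2 comparisons, also with any 1 library left out. Unadjusted p was under 0.05 for 3 T and NK cell genes in the first comparison and for 1 gene each in the dendritic, neutrophil, platelet, eosinophil and stroma lists in the other. DESeq2 called Gzma and Klrb1c, genes of cytotoxic lymphocytes, as lower in P2KO than in P2WT.

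Single libraries carried several of these medians. Without P2KO replicate 9 the platelet genes stood at -0.20 in P2KO against P2WT, with 9 of 10 lower, and the B cell genes at -0.20, with 10 of 10 lower. The stroma and endothelium genes then stood at -0.06, with 5 of 10 lower, and the neutrophil genes at 0.13. Over all fits of that comparison with 1 library left out, the medians ran from -0.35 to 0.17 for the neutrophil genes, from -0.04 to 0.22 for the erythroid genes and from -0.23 to 0.02 for the eosinophil, basophil and mast cell genes. They stayed below 0 for the progenitor genes (-0.25 to -0.02), the dendritic cell genes (-0.25 to -0.04) and the T and NK cell genes (-0.51 to -0.16).

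In P2H2KO against P2H2WT the platelet median ran from 0.14 without P2H2KO replicate 11 to 0.73 without P2H2KO replicate 15. In the latter fit 6 of the 10 genes had unadjusted p under 0.05, against 2.56% of all genes. The B cell median ran from -0.62 without P2H2KO replicate 12 to -0.09 without P2H2WT replicate 14 and was -0.13 without P2H2KO replicate 15. For the stroma and endothelium genes it ran from 0.02 to 0.41, for the dendritic cell genes from 0.02 to 0.14 and for the progenitor genes from 0.11 to 0.34. The T and NK cell genes (-0.22 to 0.04) and the eosinophil, basophil and mast cell genes (-0.19 to 0.0011) passed 0.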
